A study of Mus musculus with 16 samples.

Results

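Laminins and nidogens are the proteins that build the basement membrane on which epidermal and endothelial cells rest. The 9 genes described here, Lama2, Lama3, Lama4, Lama5, Lamb1, Lamb3, Lamc1, Nid1 and Nid2, were taken by gene symbol from the 50600 genes of a table of raw counts. All 9 were among the 22155 genes with enough counts to be tested. The table holds 16 libraries of epidermal cells from the footpad of female C57/B6J mice, 1 library per mouse and 4 libraries in each of 4 groups. From 5 wk of age, the mice ate for 3 wk a purified diet poor in ligands of the aryl hydrocarbon receptor (AhR), called SYNTH in the labels, or the same diet plus indole-3-carbinol (I3C), a precursor of AhR ligands, at 200 ppm. Footpads then received 50 μl of PBS (vehicle) or of PBS with 50 μg of papain, a cysteine protease with allergen activity, and cells were isolated 6 hr afterwards. The epidermis had been separated from the dermis with dispase, a protease that acts on the basement membrane itself. Mice of one diet shared housing, so diet and cage cannot be told apart.

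A laminin is a cross-shaped trimer of 1 alpha, 1 beta and 1 gamma chain, each encoded by its own gene. Laminin-332, which holds the chains of Lama3 and Lamb3, is secreted by basal keratinocytes and anchors them through integrin α6β4 of the hemidesmosome. The alpha chain of Lama5 is shared by epithelia and vessels, the Lama4 chain is typical of blood vessels and the Lama2 chain of muscle and peripheral nerve, and these pair with the widely used beta and gamma chains of Lamb1 and Lamc1. Nidogens bind the laminin gamma 1 chain and collagen IV and so link both networks, and in skin they are made largely by dermal cells.

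The promoters are shown because the diets differ in AhR ligands, and the DNA core read by AhR and its partner is GCGTG. RefSeq promoter entries (GRCm38) were matched for 5 of the 9 genes, with none for Lama3, Lama4, Lamc1 and Nid2. Each line gives the 250 bases before the RefSeq start, 5′ to 3′ on the strand of the gene, with GCGTG or its reverse complement CACGC in capitals. The windows are chr1:193301744-193301993 (plus strand) for Lamb3, chr12:31265043-31265292 (plus strand) for Lamb1, chr10:27616943-27617192 (minus strand) for Lama2 and chr13:13437352-13437601 (plus strand) for Nid1.
Lamb3: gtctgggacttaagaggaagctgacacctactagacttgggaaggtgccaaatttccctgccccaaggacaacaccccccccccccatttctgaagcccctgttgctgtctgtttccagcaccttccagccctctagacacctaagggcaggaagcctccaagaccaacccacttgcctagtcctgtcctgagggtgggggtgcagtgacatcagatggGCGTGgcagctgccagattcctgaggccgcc
Lamb1: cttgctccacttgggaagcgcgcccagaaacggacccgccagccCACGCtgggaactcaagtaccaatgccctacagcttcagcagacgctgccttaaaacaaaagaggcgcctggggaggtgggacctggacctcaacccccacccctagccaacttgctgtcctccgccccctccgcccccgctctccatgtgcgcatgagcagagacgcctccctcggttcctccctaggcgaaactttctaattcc
Lama2: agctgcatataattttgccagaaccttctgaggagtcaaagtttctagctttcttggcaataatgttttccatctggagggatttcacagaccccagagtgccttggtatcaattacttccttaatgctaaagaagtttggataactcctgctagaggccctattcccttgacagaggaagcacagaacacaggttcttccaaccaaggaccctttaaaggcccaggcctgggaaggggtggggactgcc
Nid1: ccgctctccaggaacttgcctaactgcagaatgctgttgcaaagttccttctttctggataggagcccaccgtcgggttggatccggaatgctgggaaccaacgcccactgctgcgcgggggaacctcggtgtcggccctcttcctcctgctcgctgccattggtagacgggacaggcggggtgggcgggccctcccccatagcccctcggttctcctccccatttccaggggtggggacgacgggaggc
The core began at position -31 from the start in Lamb3 and at position -206 in Lamb1, and no other of these windows held it. The RefSeq starts of all 4 genes lie inside their annotated gene spans. A second start of Lamb3, whose window follows the first, had no core, and neither did Lama5. The core occurs in 28.1% of the 32817 promoter windows of this length, so that its presence in single windows is common. The AP-1 motif TGANTCA, found in 6.75% of all windows, was in none of the members' windows on either strand. The windows differed in base composition. GC content was 47.2% with no CpG in Lama2, against 64.4% and 16 CpG in Nid1, 62% and 14 in Lamb1, 58.8% and 2 in Lamb3 and 72.4% and 19 in Lama5. The medians over all windows were 52.4% and 6 CpG. A match of letters is a description of the window and not a measured binding site.

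Levels of different genes were compared as CPM per kb of exon, where CPM is the read count scaled to library size with TMM factors. On this scale the 9 genes fell into a high and a low set in vehicle-treated mice. Lamb3 had the highest mean in all groups, at 43.1 ± 10.8 (SD, n = 4) on the I3C diet and 37.6 ± 1.21 on the AhR-poor diet with vehicle. It was followed there by Lama5 at 26.5 ± 4.17 and 22.1 ± 2.69 and by Lama3 at 19.9 ± 4.64 and 16.8 ± 2.94, whose libraries overlapped in both groups. Lamc1 at 8.33 ± 1.78 and 8.0 ± 0.427 and Lamb1 at 2.71 ± 0.287 and 2.83 ± 0.460 came next, each separated from its neighbours in the order. The chains known from keratinocytes thus led the order, with Lamb3, Lama5 and Lama3 holding 42.7%, 26.3% and 19.7% of the summed level of the 9 genes in I3C mice given vehicle.

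The other 4 genes were lower by far. With vehicle, Lama4 had 0.175 ± 0.0139 CPM per kb on the I3C diet and 0.818 ± 0.268 on the AhR-poor diet, Nid1 0.0395 ± 0.0151 and 0.513 ± 0.140, Nid2 0.124 ± 0.0748 and 0.288 ± 0.119, and Lama2 0.0262 ± 0.0130 and 0.0655 ± 0.0243. Neighbours from Lama4 down to Lama2 overlapped in I3C mice given vehicle, so the order of neighbours there was not resolved. Lama4 (0.155 to 0.186) still lay above all libraries of Nid1 (up to 0.0549) and Lama2 (up to 0.0450) in that group. After papain on the AhR-poor diet, Nid1 reached 2.85 ± 0.953 and overlapped Lamb1 at 3.03 ± 0.447. After papain on the I3C diet, Lamb3 (25.5 ± 3.30), Lama3 (25.3 ± 4.76) and Lama5 (19.4 ± 1.96) overlapped as neighbours. Among the 4 alpha chains, Lama2 and Lama4 together made up 0.315% to 0.542% of the summed level per length in I3C mice given vehicle and 0.514% to 1.04% after papain. On the AhR-poor diet their share was 1.496% to 3.43% with vehicle and 3.19% to 4.44% after papain, so that the alpha chain messages of Lama3 and Lama5 predominated in every library.

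**Figure D1:**
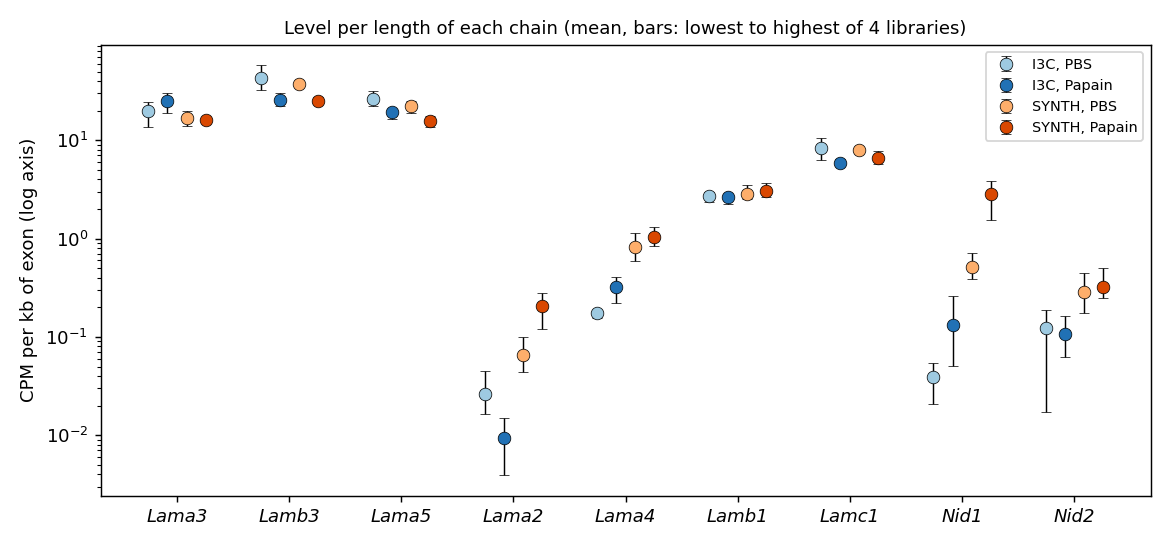
Level per length of the 9 genes, as CPM per kb of exon on a log axis, in the 4 groups of diet (I3C or AhR-poor, SYNTH) and injection (PBS or papain). Points are means of 4 libraries and bars run from the lowest to the highest library. The group means of Lamb3, Lama3, Lama5, Lamc1 and Lamb1 differ by at most 1.73-fold, while Nid1 spans group means from 0.0395 to 2.85.

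The genes of the low set varied most across the study. The highest group mean in CPM was 72.2 times the lowest for Nid1, 22.2 times for Lama2, 5.99 times for Lama4 and 3.02 times for Nid2, and the highest was always papain on the AhR-poor diet. The range of the other 5 genes was 1.16-fold for Lamb1, 1.42-fold for Lamc1, 1.59-fold for Lama3, 1.70-fold for Lama5 and 1.73-fold for Lamb3. The library totals were 22500821 to 51844375 counts, and 3 counts, used as the limit of detection, correspond to 0.0569 to 0.130 CPM, which covers counting error only. Nid1, Lama2 and Nid2 therefore rest on few counts in I3C mice, with 5 to 14 per library for Nid1 after vehicle and 2 to 10 for Lama2 after papain. Replicates varied beyond counting error, since no pair of a group had a chi-square per degree of freedom under 10.2.

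**Figure D2:**
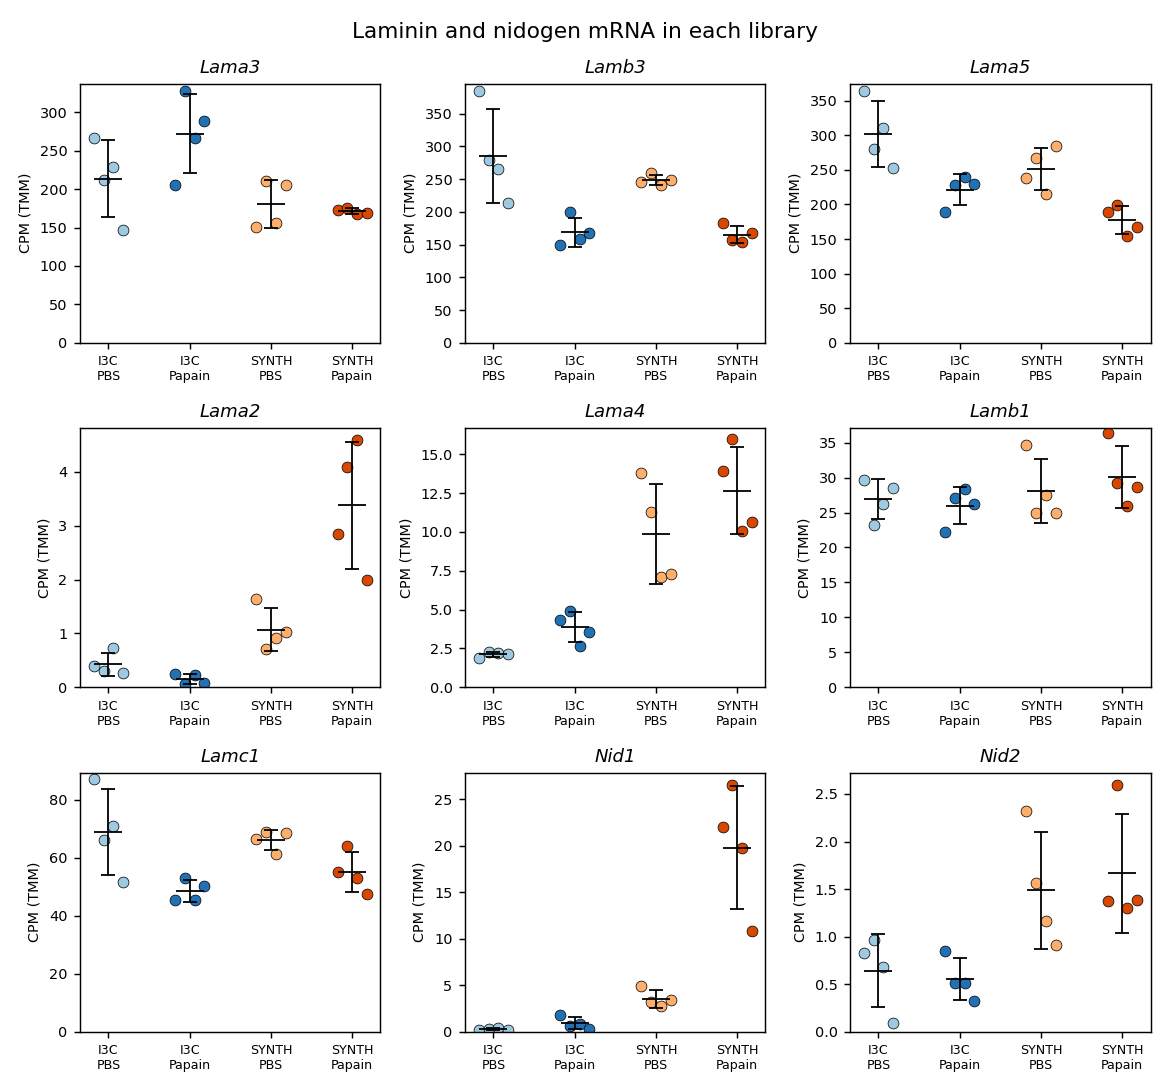
CPM (TMM-scaled) of each gene in each of the 16 libraries, on linear axes from 0. Points are libraries, with the group mean and SD in black. Lama2, Lama4 and Nid1 are highest in the AhR-poor (SYNTH) groups, and Lamb3 and Lama5 are lower after papain on both diets.

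Whether dietary AhR ligands change these genes was read from the AhR-poor minus the I3C diet within each injection, and the papain response from papain minus vehicle within each diet. The comparisons share groups of libraries, so they are not independent of each other. Each came from an edgeR quasi-likelihood model over all 22155 genes, with calls at a log2 fold change beyond 1 in either direction and a p below 0.01 after Benjamini-Hochberg adjustment. With vehicle, the AhR-poor diet had 2 of the 9 genes called higher and 0 lower, beside 1.59% of all genes called higher. With papain, 3 were called higher and 0 lower, beside 7.15% of all genes called higher. The median log2 fold change of the 9 genes was 0.06 with vehicle and 0.21 with papain, against -0.01 and 0.01 over all genes tested. On the AhR-poor diet, papain raised 2 of the 9, beside 6.04% of all genes called higher, and lowered 0, beside 2.42% called lower. On the I3C diet it raised 0 and lowered 0, beside 3.69% and 5.29%, while 6 of the 9 had an unadjusted p below 0.05 (2 higher and 4 lower), beside 20.4% of all genes higher and 22.9% lower at that p, and the Wald test of DESeq2 called 2, Nid1 higher and Lama2 lower. The medians of the papain responses were 0.10 on the AhR-poor and -0.23 on the I3C diet, against 0.00 and -0.04 over all genes.

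**Figure D3:**
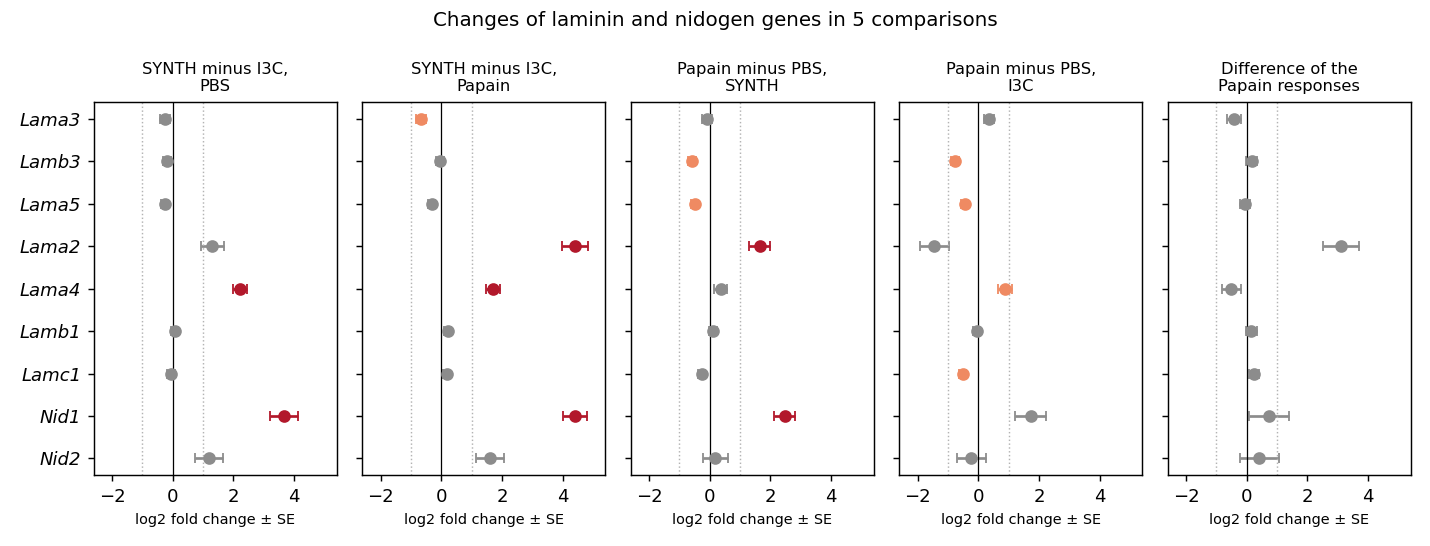
Log2 fold change with its standard error for each gene in the 4 comparisons and in the difference between the papain responses. Dark red marks genes called (adjusted p below 0.01 and log2 fold change beyond 1, dotted lines), orange marks genes past the adjusted p alone, and grey marks the rest. The called genes are Lama4 and Nid1 (diet, PBS), Lama2, Lama4 and Nid1 (diet, papain) and Lama2 and Nid1 (papain, SYNTH).

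Of the keratinocyte chains of laminin-332, Lamb3 was lower after papain on both diets. Lamb3, the beta 3 chain (ENSMUSG00000026639), lies on chromosome 1 of GRCm38 from 193207699 to 193343878. Its CPM with vehicle was 384 in T108, 279 in T109, 265 in T110 and 213 in T111 on the I3C diet, and 245 in T100, 259 in T101, 241 in T102 and 248 in T103 on the AhR-poor diet. With papain it was 149 in T106, 199 in T113, 158 in T114 and 168 in T115 on the I3C diet, and 183 in T104, 156 in T105, 154 in T107 and 167 in T112 on the AhR-poor diet. On each diet all 4 papain libraries lay below all 4 vehicle libraries (two-sided exact permutation p = 0.0286, the smallest that 4 against 4 can give). The log2 fold change was -0.59 (SE 0.13, edgeR adjusted p = 0.00195) on the AhR-poor diet and -0.76 (SE 0.13, adjusted p = 1.78e-04) on the I3C diet, a 1.503-fold and a 1.69-fold fall. Both passed the adjusted p but not the minimum fold change, as did 10.1% and 12.9% of all genes in that direction. The diets did not differ detectably in Lamb3, with log2 differences of -0.20 (SE 0.13) with vehicle and -0.03 (SE 0.13) with papain.

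Lama3, the alpha 3 chain (ENSMUSG00000024421, chromosome 18 from 12333819 to 12583013), passed neither papain test. In vehicle-treated mice its CPM was 266 in T108, 212 in T109, 229 in T110 and 147 in T111 on the I3C diet, and 151 in T100, 211 in T101, 156 in T102 and 205 in T103 on the AhR-poor diet. After papain the values were 206 in T106, 328 in T113, 266 in T114 and 288 in T115 on the I3C diet, and 172 in T104, 176 in T105, 168 in T107 and 169.5 in T112 on the AhR-poor diet. Papain and vehicle libraries overlapped on both diets, with log2 fold changes of 0.35 (SE 0.17, edgeR adjusted p = 0.117) on the I3C diet and -0.08 (SE 0.17, adjusted p = 0.775) on the AhR-poor diet. Among papain-treated mice, the 4 libraries of the AhR-poor diet lay below the 4 of the I3C diet (exact permutation p = 0.0286), with a log2 difference of -0.67 (SE 0.17, edgeR adjusted p = 0.00942). That value is past the adjusted p alone, as 3.07% of all genes were in this direction, and the adjusted p rose above 0.01 without any of 7 of the 8 libraries compared, T106 being the exception (0.0302 without T113). Lama3 shares 197 exonic bases with Gm29200 on the opposite strand, and the strand setting of the counting is not given in the sources used here.

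Ratios between chains within a library do not depend on library scaling, and were added after the values had been seen. Per length, Lama3 to Lamb3 was 0.424 to 0.532 with vehicle and 0.849 to 1.05 with papain in the I3C libraries, and 0.379 to 0.507 and 0.579 to 0.693 in the AhR-poor libraries. Its mean was 0.462 ± 0.0505 with vehicle and 0.988 ± 0.0939 (SD, n = 4) with papain on the I3C diet, and 0.446 ± 0.0668 and 0.641 ± 0.0505 on the AhR-poor diet, which is 2.14-fold and 1.45-fold higher. After papain this ratio was 1.54-fold lower on the AhR-poor diet, while with vehicle the diets overlapped. Lama5 to Lama3 was 1.36 ± 0.179 with vehicle and 0.781 ± 0.0972 with papain on the I3C diet, and 1.33 ± 0.123 and 0.977 ± 0.0939 on the AhR-poor diet. Papain and vehicle libraries of a diet did not overlap in either ratio. The ratios restate the values of the single genes and are given as a description, with no test. Leaving out each library in turn kept the log2 change of Lama3 to Lamb3 with papain between 0.46 and 0.60 on the AhR-poor diet and between 1.06 and 1.17 on the I3C diet.

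**Figure D4:**
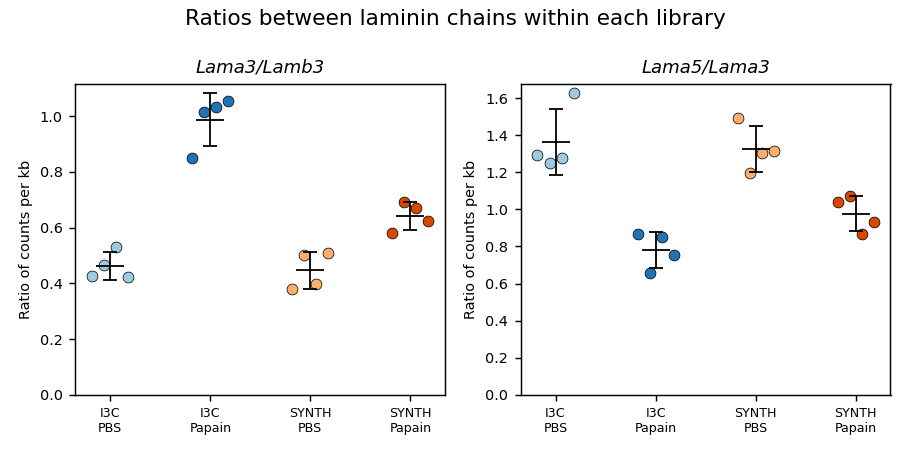
Ratios of counts per kb of exon between laminin chains within each library, on linear axes from 0, with group mean and SD in black. After papain, Lama3 to Lamb3 is higher and Lama5 to Lama3 is lower than after PBS on both diets, with no overlap between the papain and PBS libraries of a diet.

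Lama5, the alpha 5 chain of epithelial and vascular laminins (ENSMUSG00000015647, chromosome 2 from 180176373 to 180225859), fell after papain on both diets. The vehicle libraries had CPM values of 364 in T108, 280.5 in T109, 310.4 in T110 and 253 in T111 on the I3C diet, and 239 in T100, 267 in T101, 215 in T102 and 285 in T103 on the AhR-poor diet. The papain libraries had 189 in T106, 228 in T113, 239 in T114 and 229.6 in T115 on the I3C diet, and 189.5 in T104, 199.7 in T105, 154 in T107 and 167 in T112 on the AhR-poor diet. The papain libraries lay below the vehicle libraries on each diet (exact permutation p = 0.0286). The log2 fold changes were -0.50 (SE 0.12, edgeR adjusted p = 0.00228) on the AhR-poor diet and -0.45 (SE 0.12, adjusted p = 0.00468) on the I3C diet, short of the minimum fold change. The adjusted p on the I3C diet was 0.0220 without T108 and 0.0131 without T106. Between diets the values were -0.26 (SE 0.12, adjusted p = 0.329) with vehicle and -0.32 (SE 0.12, adjusted p = 0.0589) with papain, and the groups overlapped.

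Lamb1 and Lamc1, the beta 1 and gamma 1 chains found in most laminins, varied least. Lamb1 (ENSMUSG00000002900, chromosome 12 from 31265234 to 31329644) ranged over all 16 libraries from 22.2 to 36.4 CPM, and its log2 fold changes in the 4 comparisons lay between -0.05 and 0.21 with none past the adjusted p. Its groups overlapped in every comparison. Lamc1 (ENSMUSG00000026478, chromosome 1 from 153218922 to 153332786) had 51.5 to 87.2 CPM with vehicle and 45.3 to 52.9 with papain on the I3C diet, and 61.2 to 68.9 and 47.6 to 64.2 on the AhR-poor diet. On the I3C diet it fell by 0.51 on the log2 scale (SE 0.12, edgeR adjusted p = 0.00268), although 1 vehicle library, T111 at 51.5, lay within the papain range. That adjusted p was 0.0110 without T108. On the AhR-poor diet the change was -0.27 (SE 0.12, adjusted p = 0.0999), and the diets overlapped in Lamc1 with each injection.

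Lama4, the alpha 4 chain of vessel laminins (ENSMUSG00000019846, chromosome 10 from 38965515 to 39110188), was the laminin chain called higher in the AhR-poor libraries with both injections. In vehicle-treated mice its CPM was 1.87 in T108, 2.24 in T109, 2.18 in T110 and 2.16 in T111 on the I3C diet, and 13.8 in T100, 11.3 in T101, 7.10 in T102 and 7.32 in T103 on the AhR-poor diet. After papain the values were 4.34 in T106, 4.94 in T113, 2.68 in T114 and 3.58 in T115 on the I3C diet, and 13.9 in T104, 15.97 in T105, 10.04 in T107 and 10.7 in T112 on the AhR-poor diet. All libraries of the AhR-poor diet lay above all of the I3C diet. The log2 difference between diets was 2.22 with vehicle (SE 0.23, edgeR adjusted p = 3.99e-05) and 1.71 with papain (SE 0.22, adjusted p = 2.60e-05), a 4.66-fold and a 3.27-fold higher level (exact permutation p = 0.0286 for each). After papain the I3C libraries were all above their vehicle libraries, by 0.88 on the log2 scale (SE 0.23, adjusted p = 0.00622), past the adjusted p alone as were 12.7% of all genes in that direction. That adjusted p exceeded 0.01 without any of T106, T108, T109, T110, T111 or T113 (up to 0.0257, without T113), and without T114 the log2 fold change was 1.02 and the gene was called. On the AhR-poor diet the change with papain was 0.36 (SE 0.21, adjusted p = 0.212), and the difference between the responses was -0.51 (SE 0.32, adjusted p = 0.499).

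Lama2, the alpha 2 chain typical of muscle and nerve (ENSMUSG00000019899, chromosome 10 from 26980036 to 27619758), had the lowest mean level per length of the 9 genes in each group. Its CPM with vehicle was 0.402 in T108, 0.306 in T109, 0.735 in T110 and 0.270 in T111 on the I3C diet, and 1.63 in T100, 0.715 in T101, 0.915 in T102 and 1.02 in T103 on the AhR-poor diet. With papain it was 0.244 in T106, 0.0641 in T113, 0.228 in T114 and 0.0746 in T115 on the I3C diet, and 2.86 in T104, 4.10 in T105, 4.59 in T107 and 1.99 in T112 on the AhR-poor diet. Papain and vehicle libraries were thus ordered in opposite ways on the 2 diets, and neither pair of groups overlapped. On the AhR-poor diet Lama2 rose by 1.65 on the log2 scale (SE 0.35, edgeR adjusted p = 0.00102) and was called. On the I3C diet its log2 fold change was -1.45 (SE 0.49, adjusted p = 0.0255), which was not called and rests on 10, 2, 8 and 3 counts in the papain libraries. The exact permutation p was 0.0286 in each.

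The difference between these papain responses of Lama2 was 3.10 on the log2 scale (SE 0.59, edgeR adjusted p = 0.0336). It was not called at the threshold of 0.01, and 0 of the 9 genes were called in this interaction, with 1 gene, Lama2, at an unadjusted p below 0.05, beside 13.5% of all genes. DESeq2 called 1 gene, Lama2 again. Over all genes 0.0181% were called higher in the interaction and 0.329% had an adjusted p below 0.05. Without 1 library at a time, the interaction of Lama2 was 2.73 to 3.45 with an adjusted p of 0.00599 to 0.0938. Between diets, Lama2 was higher by 4.41 on the log2 scale after papain (SE 0.43, adjusted p = 1.25e-06), which is 21.3-fold on those few counts, while its difference with vehicle was 1.31 (SE 0.39, adjusted p = 0.0857) and the groups overlapped. Lama2 shares 631 exonic bases with Gm48084 on the opposite strand.

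Nid1, nidogen 1 (ENSMUSG00000005397, chromosome 13 from 13437551 to 13512269), had the widest range of the 9 genes. The vehicle libraries had CPM values of 0.144 in T108, 0.331 in T109, 0.381 in T110 and 0.240 in T111 on the I3C diet, and 4.96 in T100, 3.20 in T101, 2.72 in T102 and 3.38 in T103 on the AhR-poor diet. The papain libraries had 1.80 in T106, 0.673 in T113, 0.856 in T114 and 0.348 in T115 on the I3C diet, and 22.0 in T104, 26.5 in T105, 19.7 in T107 and 10.8 in T112 on the AhR-poor diet. The lowest library of the AhR-poor diet lay above the highest of the I3C diet in each treatment. The log2 difference between diets was 3.67 with vehicle (SE 0.46, edgeR adjusted p = 3.36e-04) and 4.41 with papain (SE 0.40, adjusted p = 2.32e-06), which is 12.7-fold and 21.2-fold. Without T106, the highest I3C library with papain, the latter was 5.003 on the log2 scale. Papain raised Nid1 by 2.47 on the AhR-poor diet (SE 0.35, adjusted p = 5.96e-05), or 5.55-fold, with no overlap. The exact permutation p was 0.0286 in these 3 comparisons. On the I3C diet the log2 fold change was 1.74 (SE 0.51, adjusted p = 0.0138), and the groups overlapped through T115. Without 1 library at a time it was 1.14 (without T106, adjusted p = 0.0642) to 2.02 (without T115, adjusted p = 0.00257, when the gene was called). The responses were not shown to differ (difference 0.74, SE 0.65, adjusted p = 0.661). Nid1 shares 143 exonic bases with Gm48682 on the opposite strand.

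Nid2, nidogen 2 (ENSMUSG00000021806, chromosome 14 from 19751265 to 19811787), followed the diet less sharply. In vehicle-treated mice its CPM was 0.833 in T108, 0.969 in T109, 0.680 in T110 and 0.0900 in T111 on the I3C diet, and 2.32 in T100, 1.56 in T101, 1.16 in T102 and 0.912 in T103 on the AhR-poor diet. After papain the values were 0.853 in T106, 0.513 in T113, 0.514 in T114 and 0.323 in T115 on the I3C diet, and 1.38 in T104, 2.60 in T105, 1.30 in T107 and 1.39 in T112 on the AhR-poor diet. The diets overlapped with vehicle and not with papain, where the exact permutation p was 0.0286. The log2 differences were 1.19 with vehicle (SE 0.45, edgeR adjusted p = 0.230) and 1.60 with papain (SE 0.45, adjusted p = 0.0179), so that Nid2 was not called. It was called with papain by DESeq2 (adjusted p = 0.00334), when no other than the 8 libraries concerned were fitted (adjusted p = 0.00628) and without T106 (1.92, adjusted p = 0.00976). Papain and vehicle libraries of Nid2 overlapped on both diets, with log2 fold changes of 0.18 (SE 0.42) and -0.23 (SE 0.48). The T111 value rests on 3 counts, and Nid2 shares 437 exonic bases with Rtraf on the opposite strand.

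Between diets, markers of dermal cells differed in the same direction as Lama2, Lama4 and Nid1. All 7 dermal fibroblast markers (such as Col1a1 and Pdgfra) and all 9 endothelial markers (such as Pecam1 and Cdh5) passed as higher with the AhR-poor diet under each injection. In each library the summed CPM of the fibroblast markers was 9.55 to 13.5 with vehicle and 2.28 to 11.6 with papain on the I3C diet, and 95.8 to 171 and 253 to 623 on the AhR-poor diet. The endothelial sums were 1.01 to 3.93 and 1.26 to 3.00 on the I3C diet, and 16.98 to 46.8 and 28.6 to 70.6 on the AhR-poor diet. No marker of either list was at 0 throughout a group. For comparison, the basal keratinocyte markers (Krt5, Krt14, Krt15 and Trp63) summed to 17210.9 to 29968.9 CPM, and the suprabasal markers to 16232.2 to 38696.6, so the libraries carry the keratinocyte markers their label implies. The part of the other cells in the values of Lama2, Lama4 and Nid1 was not tested, and in these bulk libraries fewer cells of a type and less RNA per cell cannot be told apart.

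Within the I3C diet, where the endothelial sum after papain stayed within the vehicle range, Lama4 was higher after papain in all 4 libraries. The fibroblast sum there was below the vehicle range after papain in 3 of the 4 libraries and was 11.6 in T106, the library with the highest Nid1 of its group at 1.80. Pericyte and smooth muscle markers summed to 208.6 to 373 CPM over all libraries. On the I3C diet this sum did not overlap between injections, at 218 to 300 with vehicle and 309 to 373 with papain. There papain had 1 of the 8 genes called higher, beside 3.69% of all genes. On the AhR-poor diet the sum was 216 to 299 with vehicle and 208.6 to 250 with papain. Of 8 such genes, 1 was called higher between diets with vehicle and 4 with papain, and Des was at 0 in all I3C libraries given vehicle. The median log2 difference between diets of the 8 genes was 0.65 with vehicle and 1.54 with papain. With vehicle it was 3.13 for Pdgfrb (called) and 3.10 for Rgs5 (not called), against -0.09 for Acta2 and -0.22 for Cspg4. The sum thus does not stand for each gene of the list. Schwann cell markers, of the glia in nerves, summed to 49.5 to 93.8, with 0 of 4 called between diets with vehicle and 1, Sox10, called higher with papain. Their sum on the I3C diet was 54.0 to 67.0 with vehicle and 71.0 to 93.8 with papain, with 0 of 4 called between injections. Skeletal muscle markers reached 1.01 CPM at most on the I3C diet and 0.925 to 21.1 on the AhR-poor diet. All 3 of those tested were called with papain and 0 with vehicle, and Myh4 was at 0 in all I3C libraries. Adipocyte sums stayed at or below 4.74, with both tested markers called higher between diets with papain. Neutrophil markers summed to at most 0.952 with vehicle and 20.1 to 29.5 with papain on the I3C diet, where 1 of 4 was called higher, and to at most 2.47 and 37.4 to 173 on the AhR-poor diet, where 4 were. Monocyte and macrophage sums were 9.62 to 28.2 on the I3C and 44.8 to 211 on the AhR-poor diet. Langerhans cell sums were 194 to 440.3 and 439 to 634, and eccrine gland sums 2.29 to 10.51 over all libraries.

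**Figure D5:**
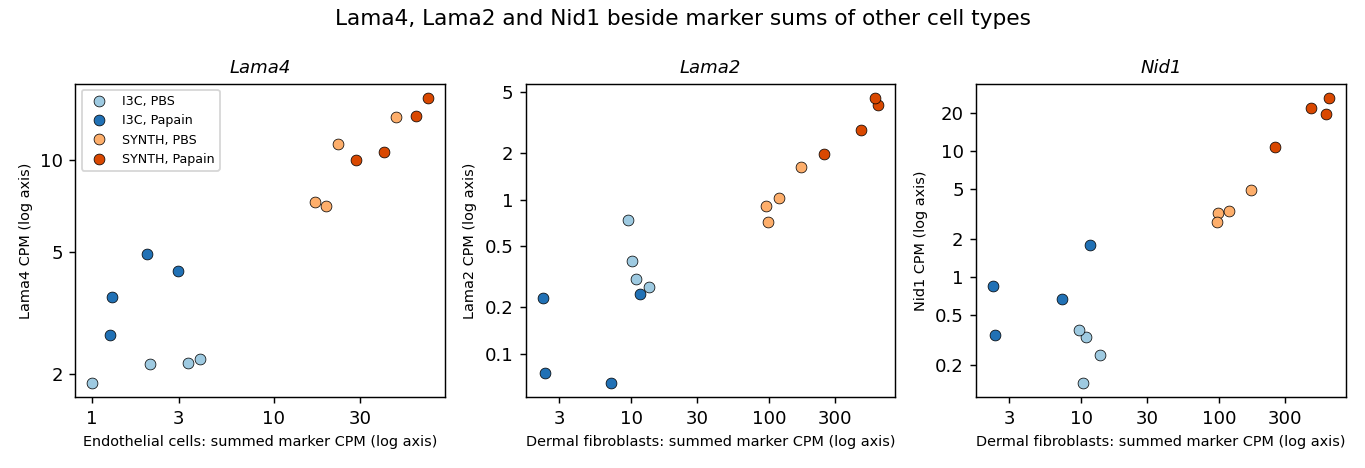
CPM of Lama4 against the summed CPM of 9 endothelial markers, and of Lama2 and Nid1 against the summed CPM of 7 dermal fibroblast markers, in each of the 16 libraries, with both axes logarithmic. The 8 AhR-poor (SYNTH) libraries lie to the right in each panel and above the I3C libraries of the same injection for Lama4 and Nid1, while for Lama2 SYNTH T101 (0.715) lies below I3C T110 (0.735). The panels have fibroblast sums of 95.8 or more against 13.5 or less in the I3C libraries.

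Of 45 other genes of the basement membrane and its receptors, 4 were higher and 0 lower by the same call in the diet comparison with vehicle, beside 1.59% of all genes higher. These were Fbln2 (2.36 on the log2 scale), a fibulin that binds nidogen, Col15a1 (2.32), a collagen at the outer face of basement membranes, and the paired collagen IV chains Col4a1 (1.63) and Col4a2 (1.25). With papain 6 were called higher and 0 lower, beside 7.15% of all genes higher, led by Fbln2 (3.55), Col15a1 (3.01), Col4a2 (2.42) and the peroxidasin Pxdn (2.32), which crosslinks collagen IV. The medians of the 45 genes were -0.06 and 0.14, against -0.01 and 0.01 over all genes. The collagen IV chains Col4a1 and Col4a2 were thus called higher between diets, as were Nid1 and Lama4. Of the 10 laminin receptor and hemidesmosome genes (Itga6, Itgb4, Dag1 and others), 0 were called between diets. With papain, Itga6 was lower on the AhR-poor diet past the adjusted p alone (log2 difference -0.47, edgeR adjusted p = 0.0078, no overlap), as were 3.07% of all genes.

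Papain was compared with vehicle in the same 45 genes. On the AhR-poor diet 4 were called higher and 7 lower, and on the I3C diet 2 higher and 10 lower, with medians of 0.08 and -0.25. The shares over all genes were 6.04% called higher and 2.42% lower in the former, and 3.69% and 5.29% in the latter. The largest changes among the called genes were falls on the AhR-poor diet of Frem2 (by 2.06 on the log2 scale) and Fras1 (by 2.04), which form the Fraser complex under epithelia, and a rise of Tinagl1 (1.89), a laminin-binding protein. The fourth was Npnt (a fall by 1.84), nephronectin, a ligand of integrin α8β1. On the I3C diet the largest were the falls of Frem2 (by 2.62), Fras1 (by 2.35), Npnt (by 2.16) and Matn2 (by 1.76), matrilin 2. Of the 4 basal keratinocyte markers, Krt15 alone was called with papain and fell by 1.38 on the AhR-poor diet and by 1.93 on the I3C diet, while Krt5 (-0.29 and -0.48), Krt14 (-0.08 and -0.34) and Trp63 (-0.18 and 0.08) were not called. Of 10 receptor and hemidesmosome genes 1 was called on each diet, Dst, the plakin that ties integrin α6β4 to keratins, which fell by 1.28 on the AhR-poor and by 1.36 on the I3C diet. The integrin chains Itga3 (0.56 and 0.55) and Itgb1 (0.68 and 0.65) rose past the adjusted p alone, while Itga6 (0.03 and 0.22) and Itgb4 (0.24 and 0.32) did not pass. In the interaction 0 of the 45 were called with edgeR and 1, Ntn4, with DESeq2.

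Genes whose profile was most like that of a member were found as those with the smallest root mean square difference of log2 CPM, each gene centred on its mean over the 16 libraries. They were chosen among 13025 genes with at least 1 CPM on average, as a description with no test. For Lama2 they were Cygb (0.39), Cd34 (0.39) and Abi3bp (0.48), against a spread of 1.60 for Lama2 itself. For Nid1 they were Serping1 (0.55), C3 (0.58) and Fgl2 (0.61), against 2.29, and for Lama4 Elovl6 (0.41), Fam57b (0.41) and Elmo1 (0.42), against 1.06. The closest to Nid2 were Atp2a3 (0.45), Cd3g (0.52) and Anxa6 (0.54), against 1.003. The keratinocyte chains had closer neighbours with smaller spreads of their own. Lama3 was nearest to Lpar5 (0.10), Prrc2c (0.11) and Ep400 (0.12), against 0.34, and Lamb3 to Jag2 (0.12), Arhgef3 (0.12) and Ptprs (0.13), against 0.38. Lama5 was nearest to Abl1 (0.10), Vezf1 (0.11) and Tnrc6a (0.11), against 0.32. The last were Lamc1 with Ssh2 (0.09), Agap1 (0.12) and Lamb2 (0.12), against 0.26, and Lamb1 with Abt1 (0.10), Srsf3 (0.12) and Rbm17 (0.13), against 0.18. Lamb2 encodes the beta 2 chain that pairs with gamma 1, and it was past the adjusted p alone after papain, at -0.40 (AhR-poor) and -0.62 (I3C) on the log2 scale.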

How the data were processed

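Epidermal cells of 16 mice were sequenced by the authors (TruSeq Stranded mRNA libraries), who named FastQC, STAR and mm10 for quality control and alignment. The authors deposited the count of reads per Ensembl gene and library, raw and without normalization. The counting tool, the annotation and the strand setting are not given in the sources used here. Groups came from the labels. Of 50600 identifiers, 50376 matched a symbol in GENCODE M21 (GRCm38) and 224 did not. The 22155 genes whose counts summed to 10 or more were fitted with edgeR 4.0.16 in R 4.3.3, with TMM factors (0.937 to 1.07), 1 mean per group and the robust quasi-likelihood F test, after the study's filter, group design and thresholds. Log2 CPM used a prior count of 2. DESeq2 1.42.0 and other filters, factors and thresholds were alternatives, and the model was tested on simulated data. Single genes were also compared with two-sided exact permutation tests, 4 libraries against 4. The replicates are separate mice.

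The named genes are the 9 members, up to 4 called genes with the largest change per comparison from a hand-written list of 45 basement membrane genes, and the 3 most alike genes per member. The members and lists, among them markers of 12 cell types, were chosen with earlier results of these data known. Lamb2 was described further, and the chain ratios added, after values were seen. The 3 sequencing units of the study are not in the labels and were not modelled.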

Additional observations from a re-analysis of the deposited data

Results flagged for a closer look

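In 36 sets of 4 libraries (9 genes in 4 groups), 1 value stood apart by Dixon's criterion, for which chance gives about 1 in 20. It was Nid2 after papain on the AhR-poor diet, where T105 lay at 2.60 CPM and the other libraries at 1.30 to 1.39, a gap of 0.932 of the range, above the critical value. Without T105 the Nid2 papain response on that diet was -0.13 on the log2 scale in place of 0.18, neither past the threshold.

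The papain response differed between diets at an edgeR adjusted p below 0.05 in 1 of the 9 genes, Lama2, by 3.10 on the log2 scale (adjusted p = 0.0336). Papain libraries were higher than vehicle libraries on the AhR-poor diet and lower on the I3C diet. Among the other basement membrane genes, the difference between responses had an edgeR adjusted p below 0.05 for Ntn4, netrin 4 (1.77, adjusted p = 0.0214), Sparc (0.76, adjusted p = 0.0307) and Mmp2, gelatinase A (0.85, adjusted p = 0.0399). Their papain responses on the AhR-poor and the I3C diet were 0.52 and -1.25 for Ntn4, 0.08 and -0.68 for Sparc, and -0.52 and -1.36 for Mmp2. Mmp2 thus fell on both diets, while Ntn4 and Sparc overlapped between injections on the AhR-poor diet. None of these differences between responses passed the adjusted p of 0.01.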

How the results depend on the processing

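Under 10 counts in every library, Lama2, Nid1 and Nid2 were no longer tested, and the members called numbered 1 between diets with vehicle (2 otherwise), 1 between diets with papain (3 otherwise) and 0 for the papain response with the AhR-poor diet (2 otherwise). Without a minimum fold change, 4 members passed for papain on each diet (2 and 0 with it). With the AhR-poor diet these were 2 higher and 2 lower, beside 10.1% of all genes lower. The share of all genes higher there lies between 6.04% (called) and 21.6% (unadjusted p below 0.05). With the I3C diet they were 1 higher and 3 lower, beside 12.7% and 12.9% of all genes. On the I3C diet, where 0 members were called, filterByExpr called 1 (Nid1), DESeq2 and an adjusted p below 0.05 each called 2 (Lama2 and Nid1), and leaving out a library gave 0 to 1 (1 without T114 or T115). In the interaction, with 0 called, DESeq2 and an adjusted p below 0.05 each called 1 (Lama2), and leaving out a library gave 0 to 1 (1 without T112). The cause of these changes was not tested beyond the filter itself. Of 291 member values under alternatives, 282 kept direction and side of the threshold, 6 passed it anew and 3 turned. Of 432 with a library left out, the numbers were 413, 4 and 15. No called member was lost where it was tested.

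The values that turned were near 0 and not called. The log2 difference of Lamb3 between diets with papain (-0.03) was 0.0778 with library size only and 0.0183 with 10 counts in every library, and the Lama5 interaction (-0.05) was 0.0064 with library size only. With a library left out, the ranges were -0.0644 to 0.109 for Lamb1 and -0.171 to 0.0753 for Lamc1 (diet, vehicle), -0.101 to 0.0709 for Lamb3 (diet, papain), -0.144 to 0.00576 for Lama3, -0.00288 to 0.228 for Lamb1 and -0.133 to 0.481 for Nid2 (papain, AhR-poor), -0.122 to 0.00965 for Lamb1 and -0.574 to 0.0430 for Nid2 (papain, I3C), and -0.00663 to 0.289 for Lamb3 and -0.155 to 0.0263 for Lama5 (interaction).

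Of the 45 other basement membrane genes, 10, 25 and 20 passed without a minimum fold change (6, 11 and 12 with it) between diets with papain and for papain within the AhR-poor and the I3C diet. The 20 were 6 higher and 14 lower, beside 12.7% and 12.9% of all genes past the adjusted p alone. The 25 were 12 higher and 13 lower, beside 10.1% of all genes lower. The 10 were 9 higher and 1 lower, beside 3.07% of all genes lower. The shares of all genes higher at that adjusted p lie between those called and those at an unadjusted p below 0.05. These bounds are 6.04% and 21.6% for the 25, and 7.15% and 17.5% for the 10. In the interaction, DESeq2 or an adjusted p below 0.05 called 1 in place of 0 (Ntn4). No paired analysis was possible because the groups share no replicate codes. Depth limits Lama2, Nid1 and Nid2 on the I3C diet, where single libraries held 2 to 74 counts.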
